A study of Mus musculus with 2 samples.

Results

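The cells described here carried UMIs of both Il2ra, the alpha chain of the IL2 receptor (CD25), and Cd200r3, an activating receptor of the CD200 receptor family, but next to none of the basophil proteases Mcpt8 and Prss34. They were chosen by the counts of 6 genes in each cell barcode with at least 1000 unique molecular identifiers (UMIs) and at most 10% mitochondrial UMIs. A member had at least 1 UMI each of Il2ra and Cd200r3, at least 6 UMIs of the pair together, at least 3 UMIs of Gata2 and Hdc together, and fewer than 20 UMIs of Mcpt8 and Prss34 together per 10000 UMIs of the cell. This rule took 505 of 21035 cells, 65 of 9621 from the culture with vehicle (DMSO) and 440 of 11414 from the culture with dabrafenib (DAB). The levels of these 6 genes are therefore a description of the choice and no result.

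The cultures were of MDSCs, myeloid-derived suppressor cells. The marrow came from C57BL/6 females of 10 weeks and was kept for 4 days in GM-CSF and IL6, 50 ng/mL of each, with DMSO or 1.5 µmol/L of dabrafenib, an inhibitor of the kinase BRAF. Single-cell RNA was counted in 1 library per condition with the 5′ chemistry of 10x Genomics, and the sources used here give no number of mice. With 1 library each, no test of the conditions is possible, cells of a library are not replicates, and every interval below covers counting error only, at 95%. The DMSO library held 106792967 UMIs in 9855 barcodes and the DAB library 165506902 UMIs in 11631 barcodes.

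Gata2 is a transcription factor that basophils, mast cells and their precursors share, and Hdc makes histamine, which both cell types store in granules. Mature mouse basophils are known for the proteases Mcpt8 and Prss34, mast cells for chymases, tryptases, Cpa3 and the receptor Kit, and both bind IgE through a receptor that needs Fcer1a and Ms4a2. IL2 signals through the beta and gamma chains Il2rb and Il2rg, and Il2ra adds affinity to that pair.

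The members were among the deepest cells of both libraries. A DMSO member held 9707 UMIs at the lowest, 23923 at the median and 66931 at the highest, and a DAB member 5221, 29361 and 79695. The median of the other cells, those that were neither members nor protease-high, was 8275 UMIs in the DMSO library and 10008 in the DAB library. A rule in whole UMIs favours deep cells, so levels were also set beside 558 DMSO and 2583 DAB other cells of like depth, the 10 nearest in UMIs to each member, whose medians were 23840.5 and 25906. The median share of mitochondrial UMIs in members was 1.34% for DMSO and 1.48% for DAB.

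Il2ra counts ran from 1 UMI per member through a median of 5 to 38 in the DMSO library and from 1 through 8 to 144 in the DAB library. Cd200r3 had a median of 6 UMIs in both, with highest values of 21 and 64. Gata2 had a median of 5 UMIs in both and was without a UMI in 0 DMSO and 26 DAB members. Hdc, with medians of 1 and 6 UMIs, was without a UMI in 27 DMSO and 43 DAB members, so Gata2 carried this condition in the DMSO library more than in the DAB library.

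The limit on the proteases was far from most cells, whereas the other limits lay inside a continuous range. In the DMSO library 64 members and in the DAB library 427 had no Mcpt8 or Prss34 UMI, and the highest member had 1.47 and 5.13 per 10000. The limit alone left out 1 DMSO cell, at 492 per 10000, and 12 DAB cells, at 27.7 to 271. Just inside the limit on Il2ra and Cd200r3, at 6 or 7 UMIs of the pair, were 14 DMSO and 49 DAB members, and just outside it, at 4 or 5 UMIs, were 10 and 51 cells. With 3 UMIs of Gata2 and Hdc there were 6 and 36 members, and with 2 UMIs, just outside, 12 and 34 cells. Of the 94 DMSO and 531 DAB cells that met the Il2ra and Cd200r3 part of the rule, 10 and 26 had no UMI of Gata2 or Hdc.

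The share of members was 0.676% in the DMSO library (exact binomial interval 0.522 to 0.860) and 3.85% in the DAB library (3.51 to 4.22), a log2 ratio of 2.51 (2.13 to 2.91), or 5.71-fold. The protease-high cells, chosen by the same Gata2 and Hdc condition with at least 20 UMIs of Mcpt8 and Prss34 per 10000, were 55 of the DMSO cells (0.572%) and 74 of the DAB cells (0.648%). The share was larger in deeper cells of both libraries, as the plot by total UMIs shows. Among cells of 20000 to 30000 UMIs, members were 2.46% in the DMSO and 8.01% in the DAB library, and among those of 10000 to 15000 UMIs 0.669% and 1.87%. No member was found among 2841 DMSO and 3163 DAB cells of 1000 to 5000 UMIs, which allows shares of up to 0.130% and 0.117%. After every cell with at least 10000 UMIs was thinned to 10000, the rule took 20 cells of 4120 in the DMSO library (0.485%, 0.297 to 0.749) and 140 of 5919 in the DAB library (2.37%, 1.99 to 2.79), where it took 64 and 431 of the same cells unthinned (1.55% and 7.28%). The DAB share was thus higher in each depth range that held members, and it was higher after thinning.

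**Figure D1:**
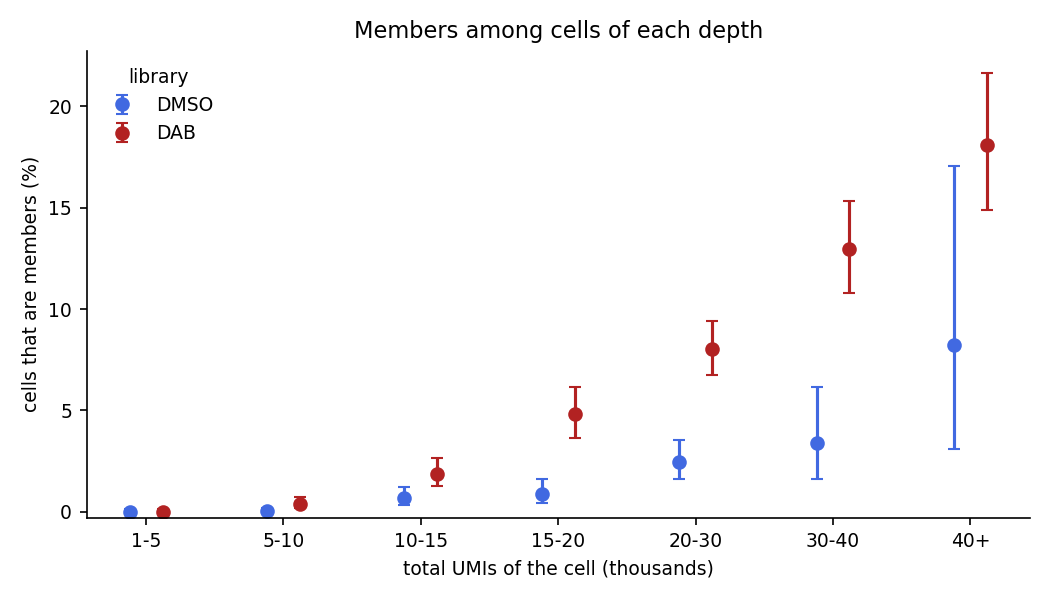
Share of cells that were members (vertical axis, %) against the total UMIs of the cell (horizontal axis) in the DMSO and DAB libraries; points are shares and bars exact 95% binomial intervals. The share climbs with depth in both libraries, and the DAB point lies above the DMSO point in each range from 5000 UMIs on, with 18.1% against 8.22% among cells of 40000 UMIs or more.

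Genes of the rule were also higher in the other cells of the DAB library. Hdc stood at 9.32 CPM in DMSO and 55.1 CPM in DAB other cells, Il2ra at 12.6 and 25, and Gata2 at 10.8 and 28.1. CPM are the UMIs of a gene per 1000000 UMIs, summed over all cells of a group, and are the scale of every level below unless stated, with the DMSO library first. B cells, chosen by at least 5 UMIs of Cd79a and Cd79b, should lack Hdc and held it at 7.85 and 15. Members, chosen on Hdc and Il2ra among others, held Hdc at 93.2 and 401 and Il2ra at 299 and 415. How far the higher levels outside the members moved the share was not tested. With Gata2 alone at 3 or more UMIs, a condition tried after the data were seen, 60 DMSO members remained (0.624%) and 2.92% of DAB cells qualified.

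In 152 barcodes the DMSO and DAB files shared the sequence, of which 8 were members in the DAB library, 0 in the DMSO library and 0 in both. Scores against simulated doublets called 8 of the 65 DMSO members (12.3%) and 69 of the 440 DAB members (15.7%), against 7.88% and 9.30% of all barcodes. Without the called barcodes the shares were 0.645% and 3.59%.

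The members lay near each other on genes the rule did not use. In a space of 30 principal components of variable genes, from which the 6 genes of the rule were left out, 23.4% of the 20 nearest neighbours of a DMSO member were members and 52.0% of those of a DAB member, where members were 0.676% and 3.85% of the cells. At least 1 of these neighbours was a member for 58 of 65 DMSO and 428 of 440 DAB members. The neighbours were not matched for depth, and members were a larger share of deep cells. They were 2.46% and 8.01% of cells with 20000 to 30000 UMIs and 8.22% and 18.1% of those with 40000 or more. Protease-high cells made up 0.923% and 0.557% of the members' neighbours and 0.572% and 0.648% of the cells, whereas 89.9% and 69.4% of the neighbours of a protease-high cell were protease-high themselves. In the DMSO library 24.2% of the neighbours were Mmp12-high cells (at least 20 UMIs of Mmp12 per 10000, 10.3% of all cells) and 20.8% were class II-high cells (at least 20 UMIs of H2-Aa per 10000, 6.16%). In the DAB library these shares were 6.59% (of 5.46%) and 2.39% (of 5.69%), so the neighbours of DAB members were mostly other members. These 2 groups were defined after the data were seen; 22 DMSO and 76 DAB members were themselves over the Mmp12 limit and 19 and 17 over the H2-Aa limit.

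The label of these cells restates the rule, so it was checked on markers outside the rule. The IgE receptor chains, Gata1, Kit and the mast cell proteases were absent or near 0, whereas Cpa3, described below, was present in a few members. Fcer1a (GRCm38, chromosome 1, 173221284 to 173227214), the alpha chain of the IgE receptor, had 0 UMIs in DMSO members and 2 UMIs in DAB members (0.148 CPM), against 105 and 182 in protease-high cells. Ms4a2 (chromosome 19, 11615523 to 11623719), its beta chain, had 0 UMIs and 2.95 CPM against 275 and 304. Mcpt8 (chromosome 14, 56082166 to 56085273) stood at 3.63 and 4.72 against 5372 and 3685, and Prss34 (chromosome 17, 25298394 to 25300165) at 0 and 0.517 against 14985 and 12129. The levels of Mcpt8 and Prss34 follow from the choice of both groups, while the IgE receptor chains were not used in it. Gata1 also had 0 UMIs in DMSO members and 0.148 CPM in DAB members, against 41.0 and 41.5, and Kit had 0 UMIs and 1.03 CPM.

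Of 16 mast cell markers, 13 had 0 UMIs in DMSO members and 11 in DAB members, among them Cma1, Tpsab1, Mcpt1, Mcpt2, Mcpt4, Mrgprb1 and Mrgprb2. Their sum was 93.8 and 112 CPM, close to the 115 and 109.6 of other cells, and most of it came from Mitf in DMSO (62.6%) and Itgb7 in DAB (63.4%). The 12 T cell markers summed to 6.66 and 4.35 CPM with 9 and 3 at 0, and the 7 NK cell markers to 1.82 and 2.73. The 12 markers of type 2 innate lymphoid cells, which carry Il2ra too, summed to 76.9 and 114, against 114 and 113 in other cells. The 8 B cell markers stood at 7.87 and 7.16, against 11125 and 7175 in B cells. Il2ra was thus not accompanied by T, NK or B cell genes, and the most abundant gene of the innate lymphoid list was Il7r in DMSO members (44.9% of the sum) and Thy1 in DAB members (77.8%).

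Cpa3 (chromosome 3, 20215620 to 20242181), a carboxypeptidase of mast cell and basophil granules that is listed among the markers of these cells, was carried by few of them. It had at least 1 UMI in 6.15% of DMSO and 10.9% of DAB members, and the 10% of members richest in Cpa3 held 100% and 99.8% of its UMIs. The level over all members was 49.0 and 168, against 0.680 and 11.4 in other cells and 585 and 1338 in protease-high cells.

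Compared with the other cells, 194 of 10191 genes (1.9%) were higher in members by at least log2 1 in both libraries and 346 (3.4%) were lower. Against the other cells of like depth these were 154 of 10141 (1.52%) and 202 (1.99%). The median ratio over all genes was 0.01 for DMSO and -0.14 for DAB on the log2 scale. The 20 genes that led the ranking outside the rule, by the smaller of the ratios of the libraries with 1 UMI added to each sum, were Il4, Oosp1, Fcrls, Cpa3, Il9r, Alox15, Fgfr1, Kcne3, Mmp7, Neb, Grm6, Fam3b, Gpr174, Cd226, Cav1, Nxpe4, Itga2, Rpp25, Akr1c12 and Tanc2. Mmp7 and Grm6 had 0 UMIs in DMSO members, so their place rests on the DAB library and the added UMI. The genes differed widely in how many members carried them, and shares of members below are as counted unless given as thinned.

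Adgre1 (chromosome 17, 57358691 to 57483527), which encodes the macrophage antigen F4/80, was outside these 20 genes but found in nearly every member, in 100% of the DMSO and 99.1% of the DAB members. Its level was 438 and 508, against 108 and 117 in other cells, 130.2 and 129 in other cells of like depth, and 49.2 and 166 in protease-high cells. Thinned to 1500 UMIs per cell, 46.2% of DMSO members (33.7 to 59.0) and 52.3% of DAB members (47.5 to 57.0) had an Adgre1 UMI, against 14.7% and 15.4% of other cells of like depth. In B cells, which should lack the gene, the thinned shares were 10.1% and 2.66%, at median depths of 5024.5 and 5825 UMIs before thinning.

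Alox15 (chromosome 11, 70344152 to 70352031), the 12/15-lipoxygenase of eosinophils and alternatively activated macrophages, stood at 59.3 and 56.6, against 0.910 and 4.33 in other cells, which is 65.2-fold and 13.1-fold higher. It was found in 43.1% and 44.5% of members. Thinned, 12.3% of DMSO members (5.47 to 22.8) and 8.41% of DAB members (5.99 to 11.4) had a UMI. So did 0.358% and 0.658% of other cells of like depth. Of B cells, 0 of 99 and 0 of 188 did (0 to 3.66% and 0 to 1.94%). Of 5 measured eosinophil markers, 2 were higher than in other cells in both libraries, Alox15 and Ccr3, and 1 was lower, where 1.9% of all genes were higher and 3.4% lower. Ccr3, the eotaxin receptor, stood at 1.82 and 3.98 against 0.354 and 0.989, but its DMSO level is that of 3 UMIs. The lower gene was that of the granule protein Prg2, at 0.605 and 22.7 against 4.96 and 77.2. Epx, Prg3, Ear6 and Il5ra had 0 UMIs in DMSO members and at most 0.295 CPM in DAB members. Alox15 made up 71.5% and 57.0% of the sum of the 10 eosinophil markers.

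Fcrls (chromosome 3, 87250758 to 87263738), an Fc receptor-like gene of myeloid cells, stood at 97.5 and 54.3, 23.3-fold and 15.5-fold above other cells, and had 0 UMIs in the protease-high cells of both libraries. Tanc2 (chromosome 11, 105589986 to 105929304), a scaffold protein, was found in 87.7% and 83.4% of members at 167 and 159, against 17.8 and 18.4. Thinned, its shares were 27.7% and 24.3%, against 2.51% and 2.32% of other cells of like depth. Fgfr1, a receptor of fibroblast growth factors, stood at 80.5 and 79.0 against 3.18 and 6.19. Fcrls had a UMI in 70.8% and 55.2% of members and Fgfr1 in 66.2% and 64.5%, whereas Mmp7 was in 1.82% of DAB members. Fgfr1 was not particular to members in the DAB library, where after thinning 12.3% of members and 16.2% of protease-high cells had a UMI.

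Among genes of basophils outside the rule, 4 of 7 measured were higher than in other cells in both libraries, where 1.9% of all genes were. The list medians were 1.81 and 1.32 on the log2 scale beside the 0.01 and -0.14 of all genes. Against Mmp12-high cells 2 of the 7 were higher and 0 lower, beside 3.67% and 2.92% of all genes. Against protease-high cells 0 of the 7 were higher and 2 lower, beside 5.87% and 9.35% of all genes, with medians of -0.28 and -0.92. Those higher than in other cells were Cd200r4, a relative of Cd200r3, at 139 and 229.8 against 25.5 and 68.8, the water and glycerol channel Aqp9 at 137 and 216 against 39.0 and 86.8, the integrin Itga2 at 6.66 and 16.8 against 0.306 and 1.76, and Il4. Il4, the type 2 cytokine that basophils secrete, stood at 11.5 and 17.0 against 0.517 and 1.06, 22.2-fold and 16.1-fold higher, but only 15.4% and 20.7% of members held a UMI of it. In the DMSO library 10 Il4 UMIs came from the 4 members with at least 5 UMIs of Cpa3. The other 61 members held 9, at 6.01 CPM. Cyp11a1, the enzyme that opens steroid synthesis, was carried by 46.2% of DMSO and 82.5% of DAB members (10.8% and 24.1% thinned). Its levels were 116 and 253, against 14.3 and 41.2 in other cells.

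**Figure D2:**
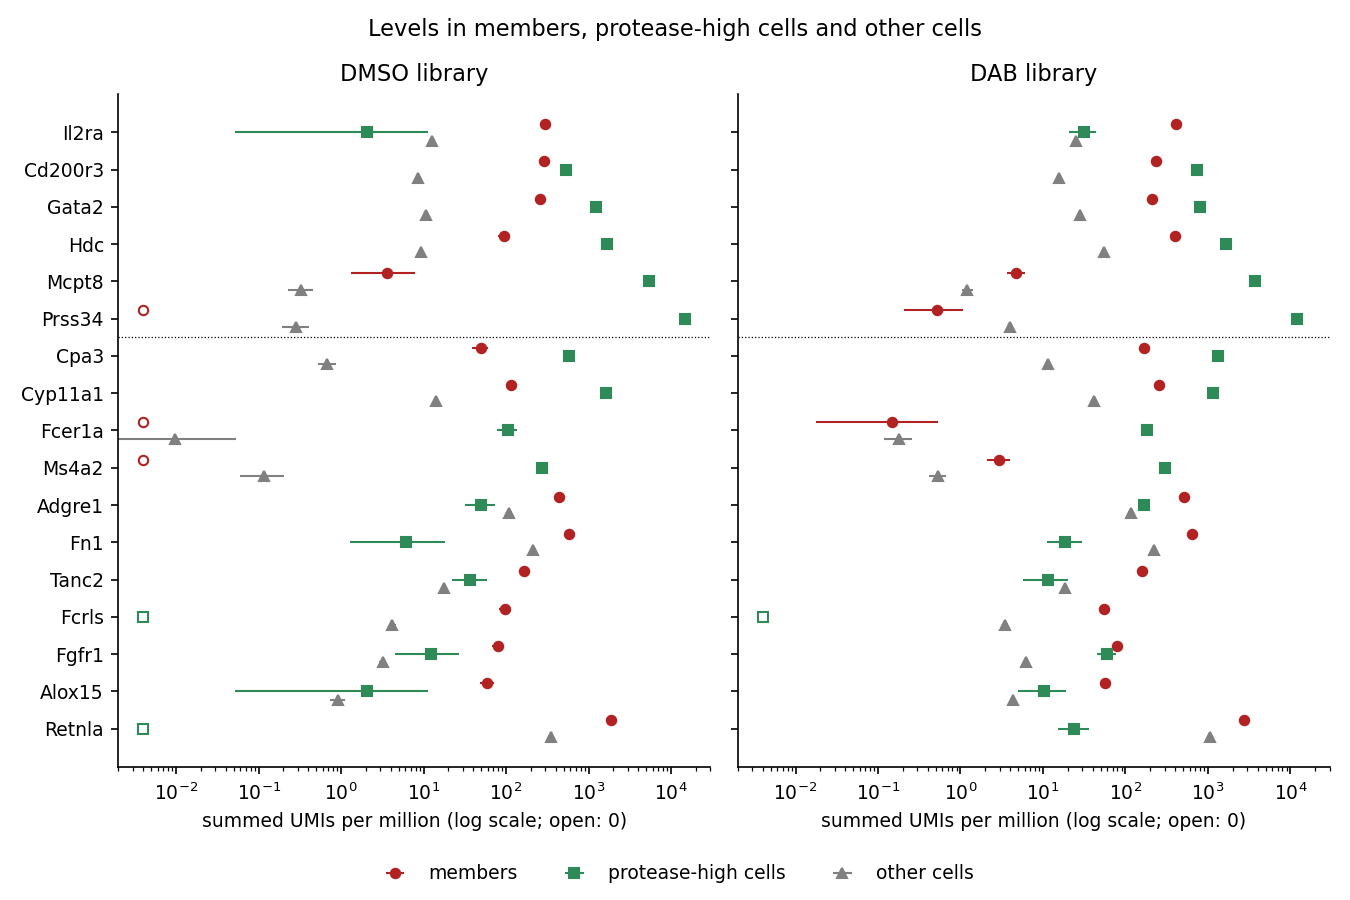
Summed CPM (log axis) of 17 genes in members, protease-high cells and other cells of each library, with exact Poisson 95% intervals; open symbols stand for 0 UMIs and are placed at an arbitrary low value. The genes above the dotted line chose the cells; below it, Cpa3, Cyp11a1, Fcer1a and Ms4a2 lie highest in protease-high cells, and Adgre1, Fn1, Tanc2, Fcrls, Alox15 and Retnla highest in members.

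Set against the protease-high cells, 615 of 10485 genes (5.87%) were higher in members in both libraries and 980 (9.35%) were lower. With scaling by the median of ratios in place of the total, these were 797 and 761, so which direction held more genes depended on the scaling. Among genes shared by basophils and mast cells, several reached the minimum of 50 UMIs only through the protease-high cells, so no count over them is given. Il1rl1, the IL33 receptor, stood at 9.69 and 13.4 in members against 156 and 193 in protease-high cells, and Il3ra, the alpha chain of the IL3 receptor, at 24.2 and 39.3 against 219.5 and 216. The 13 genes of that list outside the rule summed to 285 and 556 CPM in members, 3251 and 3660.5 in protease-high cells and 126 and 172 in other cells, and class II-high cells stood at 373 and 352. Cyp11a1 alone made up 40.8% and 45.6% of the sum in members, and Cpa3, carried by few, was part of it too.

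The genes furthest above the protease-high cells were Retnla, Fcrls, Fn1, Ccl24, Lpl, March3, C1qb, Vcan, Fgf13 and Tns4, and those furthest below were Ctsg, Fcer1a, Csrp3, Ms4a2, Igfbp7, Cpne7, Gata1, Adamtsl1, Fer and Atp1b1. Fn1, fibronectin, stood at 579 and 649, against 6.15 and 18.7 in protease-high cells. Lpl, lipoprotein lipase, stood at 1104 and 419 against 22.6 and 19.7, and Vcan, the proteoglycan versican, at 64.8 and 50.5 against 0 and 2.07. These 3 genes were thus far lower in protease-high cells of both libraries. Ctsg, the granule protease cathepsin G, stood at 0.605 and 8.19 against 1616 and 1573, and Igfbp7 at 0.605 and 0.738 against 107 and 69.4.

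Of 9 measured monocyte and macrophage genes, 3 were higher than in other cells in both libraries (Fn1, Adgre1 and C1qb) and 2 were lower (Ly6c2 and F13a1), beside 1.9% and 3.4% of all genes. The list median was 0.47 in the DMSO and -0.72 in the DAB library, so it differed in sign between them. Csf1r, the receptor of M-CSF, stood at 111 and 81.3, below the 153 and 134 of other cells, and Mrc1 had 0.605 CPM and 0. The list summed to 3679 and 2985 CPM in members against 2716 and 3477 in other cells, and Lyz2, which was not past the fold, made up 59.4% and 46.3% of the members' sum.

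Of 12 neutrophil genes, 11 were lower than in other cells in both libraries and 8 lower than in other cells of like depth, beside 3.4% and 1.99% of all genes. S100a8 and S100a9 together were at a median of 0.00684% of the UMIs of a DMSO member and 0.0189% of those of a DAB member, against 0.854% and 1.29% in other cells. They exceeded 0.5% in 7 of 65 and 65 of 440 members, and the richest 10% of members held 96.9% and 82.9% of all S100a8 UMIs. Most S100a8 UMIs thus sat in a small share of members, although 55.4% and 85.5% of members held at least 1. Thinned, these shares were 15.4% and 31.6%, against 25.3% and 37.8% of B cells. Whether the neutrophil transcripts entered as doublets or free RNA was not tested.

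The members were also set beside the Mmp12-high cells, which were frequent among their neighbours in the DMSO library. Of 10045 genes, 369 (3.67%) were higher in members in both libraries and 293 (2.92%) lower. Fn1 was alike, at 579 and 649 in members and 631 and 687 in Mmp12-high cells, and so was Lpl, at 1104 and 419 against 1112 and 493. Adgre1, at 165 and 228 in Mmp12-high cells, and Tanc2, at 56.5 and 55.1, were lower there than in members. Of 22 proliferation genes, 16 were higher in members than in Mmp12-high cells in both libraries and 0 lower. Against other cells of like depth 0 of 22 passed the fold, with medians of 0.15 in the DMSO and -0.43 in the DAB library, and against protease-high cells 0 were higher and 1 lower, so the direction depended on the cells compared. Against class II-high cells 322 of 10347 genes (3.11%) were higher and 442 (4.27%) lower.

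The members differed among themselves. Retnla (chromosome 16, 48842551 to 48844461), a resistin-like protein that IL4 induces in macrophages, stood at 1894 and 2743 over all members but was found in 46.2% and 43.0% of them, and the richest 10% held 84.7% and 89.4% of its UMIs. Thinned, 26.2% and 21.8% of members had a UMI, against 2.02% and 5.85% of B cells, which should lack it, so low Retnla counts in the DAB library are not read as expression. Its highest value in a single member was 279.5 UMIs per 10000 in DMSO and 882 in DAB, and its median was 0 in both. Adgre1, by contrast, had medians of 4.48 and 5.02 UMIs per 10000 and highest values of 12.1 and 25.8. The plot of single members shows both patterns.

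**Figure D3:**
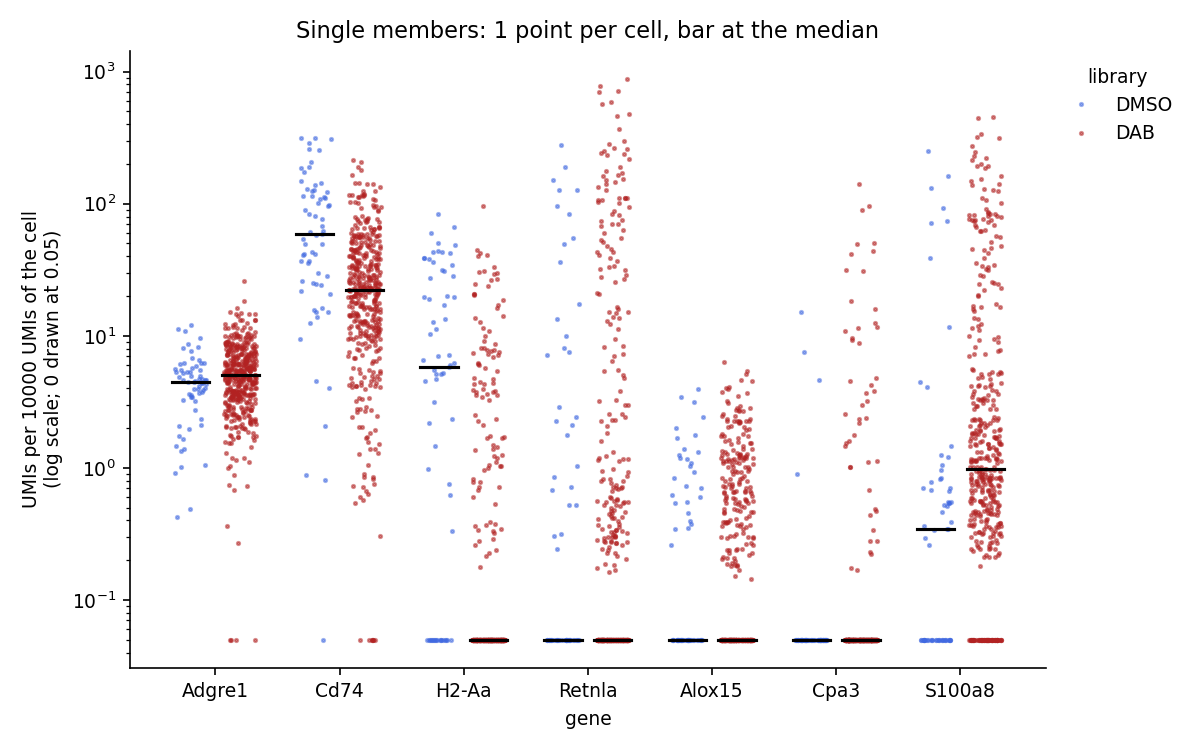
UMIs per 10000 UMIs of the cell (log axis, 0 drawn at 0.05) of 7 genes in single members, 1 point per cell, for 65 DMSO and 440 DAB members; black bars are medians. Adgre1 forms 1 band around its medians of 4.48 and 5.02, whereas Retnla and Cpa3 reach high values in a few members and are at 0 in many.

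Members with at least 5 UMIs of Cpa3, 4 in the DMSO library and 33 in the DAB library, differed from the rest in several genes. Cyp11a1 stood at 482 and 706 in them, against 78.8 and 209 in the other members, and Ms4a2 at 0 and 23.9 against 0 and 0.892. Fn1 stood at 0 and 153 against 638 and 698, and Retnla at 149.9 and 356 against 2072 and 2978. Fcer1a had 0 UMIs in the Cpa3 carriers of both libraries. The division into carriers and the rest was by the counts themselves, and the Cpa3 carriers were deeper, with median totals of 34684 and 36503 UMIs. Members with at least 5 UMIs of Retnla, 20 and 97, had Fn1 at 868 and 1423, against 453 and 427 in the rest, and Alox15 at 82.0 and 109.9 against 49.5 and 41.2. Carriers of Cpa3 and of Retnla thus differed in Fn1 in opposite directions, which is a description over cells of the same libraries. The sets overlapped, and Cpa3 stood at 86.0 and 50.5 in Retnla carriers, against 33.0 and 202 in the rest. Its direction therefore differed between the libraries, and the DMSO side rests on 4 Cpa3 carriers.

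Between the libraries, 458 of 9684 genes (4.73%) were higher in DAB than in DMSO members by at least log2 1 and 583 (6.02%) were lower, with a median over all genes of -0.08. With scaling by the median of ratios these were 534 and 469, so here too the direction with more genes depended on the scaling. The 10 genes highest in DAB members, ranked by the bound of the interval nearest to 0, were Cstdc5, Stfa3, Stfa2, Csta3, Cxcl3, Stfa2l1, Stfa1, G0s2, Ccl2 and Ly6g. The 10 lowest were Rnase2a, Ccl17, Clec4b1, Il4i1, Timp1, Asgr2, Irf8, Ccl24, Plet1 and H2-Aa. The leading genes upward were thus mostly stefins, inhibitors of cysteine proteases, and those downward included the chemokines Ccl17 and Ccl24 and a class II gene.

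Genes of MHC class II presentation were lower in DAB members. H2-Aa (chromosome 17, 34282744 to 34287823), the alpha chain of I-A, stood at 1588 in DMSO members and 227 in DAB members, a log2 ratio of -2.81 (-2.88 to -2.73). H2-Ab1 (chromosome 17, 34257689 to 34269419), its beta chain, stood at 1638 and 349.6 (-2.23), and H2-Eb1 (chromosome 17, 34305867 to 34316674) at 955 and 136 (-2.82). Both chains of I-A were thus lower, as were Ciita, the activator that turns these genes on, at 33.3 and 7.08 (-2.23, -2.73 to -1.73), and the invariant chain Cd74, at 8601 and 3278 (-1.39). H2-DMa, which loads peptides, did not pass the fold, at 581 and 411 (-0.50).

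In all, 5 of 6 class II genes were lower and 0 higher, beside 6.02% and 4.73% of all genes, with a list median of -2.23, while in other cells 0 of 6 passed the fold and the median was 0.00. In Mmp12-high cells, which were not chosen on a class II gene, H2-Aa stood at 407 and 48.9 (-3.06) and H2-Eb1 at 196 and 27.1 (-2.86). In protease-high cells the list went the other way, 4 of 6 genes being higher and 0 lower in DAB, beside 1341 higher and 614 lower of 9684 genes. There H2-Aa stood at 2.05 and 178 and had a UMI in only 1.82% of 55 and 8.11% of 74 cells. Class II-high cells were chosen on H2-Aa and were at 4478 and 4181. Relative to the other cells of their library, class II genes had a list median of 1.47 in DMSO members and -0.77 in DAB members, so the direction differed between the libraries.

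H2-Aa had a UMI in 72.3% of the DMSO and 23.4% of the DAB members, and after thinning in 58.5% (45.6 to 70.6) and 11.6% (8.75 to 14.96). Members with at least 5 UMIs of H2-Aa were 42 of 65 and 65 of 440. In the DAB library these carriers had Fn1 at 175, against 744 in the rest, and Cyp11a1 at 129 against 278. In the DMSO library they had Fn1 at 363 against 1012 and Cyp11a1 at 117 against 115.

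Genes of activated dendritic cells followed, 5 of 5 measured being lower in DAB members, where 6.02% of all genes were lower. Their median was -3.27, beside -1.0 for the same genes in other cells and -1.69 in other cells of like depth, where 3 of the 5 were lower. Ccl17 (chromosome 8, 94810453 to 94812036), a chemokine for CCR4, stood at 814 and 56.1 (-3.86), Ccl22 at 46.0 and 8.63, and the homing receptor Ccr7 at 16.3 and 1.70. Ccl17 was carried by 33.8% of DMSO and 4.32% of DAB members, or 18.5% and 1.36% after thinning. In other cells Ccl17 was lower too, at 257 and 34.8 (-2.89), whereas Ccr7 was at 22.8 and 20.2. Irf8, a transcription factor of monocytes and dendritic cells, stood at 44.8 and 4.06, and Ccl24, a chemokine for eosinophils, at 623 and 83.8 in members, against 51.7 and 26.2 and 193 and 134 in other cells.

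The stefin genes, which lie next to each other on chromosome 16 (Stfa1, Stfa2, Stfa2l1 and Stfa3 between 36156811 and 36455392), were higher in DAB members. Cstdc5 stood at 23.0 and 849.8 (log2 ratio 5.21), Stfa2 at 5.45 and 229.6 (5.40), and Stfa2l1 at 21.8 and 400.2 (4.20). These copies are near-identical, so how reads were split among them is uncertain, and the same genes were higher in DAB other cells, at 226 and 1445 for Cstdc5, 118 and 706 for Stfa2 and 392 and 806 for Stfa2l1. Their levels in members stayed below those of other cells in both libraries, by 0.102-fold and 0.588-fold for Cstdc5. In B cells, which should lack it, Cstdc5 stood at 9.16 and 349, and how much free RNA added to members was not tested. After thinning, 0 of 65 DMSO members (0 to 5.52%) and 18.4% of DAB members had a Cstdc5 UMI, against 0 of 99 (0 to 3.66%) and 5.32% of B cells. As counted, 6.15% of DMSO and 40% of DAB members had one.

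G0s2, an inhibitor of fat breakdown, had a UMI in 7.69% of the DMSO and 62.7% of the DAB members, at 3.63 and 76.6 (log2 ratio 4.40, 3.27 to 5.85). It was higher in DAB other cells too, at 28.7 and 78.0 (1.44), and had a UMI in 22.8% and 55.9% of other cells of like depth. After thinning, 0 of 65 DMSO members (0 to 5.52%) and 11.1% of DAB members had one, against 1.79% and 7.78% of other cells of like depth. Ly6g (chromosome 15, 75155240 to 75159126), the neutrophil surface antigen, stood at 5.45 and 86.5 (3.99), but the richest 10% of DAB members held 98.7% of its UMIs. Among members with at most 0.5% of S100a8 and S100a9, a limit added after the data were seen, the ratios were 5.04 for G0s2 and 5.78 for Ly6g. Over the 12 neutrophil genes 4 were higher (Ly6g, Mmp9, Lcn2 and Retnlg) and 3 lower (Ngp, Camp and Csf3r), where 4.73% and 6.02% of all genes were. Their median was 0.34, beside -0.25 for the same genes in other cells and 0.56 in other cells of like depth. The median in members was 1.86 with the limit on S100a8 and S100a9, 1.08 with at least 10 UMIs of Il2ra and Cd200r3 and 1.01 without called doublets.

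Genes of the amino acid response are transcribed when the kinase GCN2 senses uncharged tRNA and ATF4 binds their promoters at C/EBP-ATF response elements. Of 39 measured, 21 were higher in DAB members, 1 was lower and the median was 1.17. Over all genes 4.73% were higher and 6.02% lower in DAB members. In other cells 28 of the list were higher and 1 lower, with a median of 1.46, where 291 of 9684 genes were higher and 207 lower. The members thus shared the direction of the other cells of the culture. Asns (chromosome 6, 7675169 to 7693254), asparagine synthetase, stood at 23.6 and 104 (log2 ratio 2.14, 1.68 to 2.64) in members and at 26.0 and 131 in other cells (2.33). Phgdh, which opens serine synthesis, stood at 22.4 and 145 (2.70), the pseudokinase Trib3 at 19.4 and 78.3 (2.01) and the transcription factor Atf5 at 7.87 and 73.1 (3.22).

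Stc2, the secreted stanniocalcin 2, stood at 3.63 and 53.3 (3.88), and had a UMI in 6.15% of DMSO against 61.1% of DAB members. Cth, cystathionine gamma-lyase, had 0 UMIs in DMSO members and 20.2 CPM in DAB members, at least 11.1-fold higher when 3 UMIs are allowed to the DMSO members. The transporter genes Slc7a5 and Slc3a2, whose products form 1 carrier of large neutral amino acids, stood at 65.4 and 199.7 and at 119 and 286. Other genes of the list did not pass the fold, among them the transporter Slc7a11 (0.21) and the enzymes Mthfd2 (0.85) and Aldh18a1 (0.89). The 1 lower gene was Atf3, at 55.7 and 12.5 (-2.15), which was lower in other cells as well, at 56.9 and 25.8.

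Promoters of 3 of the higher genes are shown because they hold the letters TGATGNAA, the core that C/EBP-ATF elements share, on 1 strand or the other. They are the 250 bases before the start of the gene, from RefSeq on GRCm38.p6, 5′ to 3′ along the gene, with the match in capitals. The match lies 23 bases before the start in Asns (chr6:7693210-7693459, minus strand), 193 in Chac1, a glutathione-degrading enzyme (chr2:119350992-119351241, plus strand, match on the other strand), and 103 in Pycr1, of proline synthesis (chr11:120643749-120643998, minus strand). The start is that of RefSeq, and for Asns it lies inside the longer GENCODE gene given above, as do the match and the bases next to that start.
Asns: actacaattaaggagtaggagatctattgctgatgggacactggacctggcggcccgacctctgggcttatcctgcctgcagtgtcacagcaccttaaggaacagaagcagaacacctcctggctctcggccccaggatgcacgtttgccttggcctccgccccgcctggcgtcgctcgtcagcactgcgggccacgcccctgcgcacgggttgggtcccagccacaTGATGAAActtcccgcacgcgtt
Chac1: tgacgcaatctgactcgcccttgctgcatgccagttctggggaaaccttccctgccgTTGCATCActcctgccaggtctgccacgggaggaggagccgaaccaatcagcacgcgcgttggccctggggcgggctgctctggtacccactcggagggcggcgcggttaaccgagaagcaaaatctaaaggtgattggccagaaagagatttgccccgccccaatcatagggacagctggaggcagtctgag
Pycr1: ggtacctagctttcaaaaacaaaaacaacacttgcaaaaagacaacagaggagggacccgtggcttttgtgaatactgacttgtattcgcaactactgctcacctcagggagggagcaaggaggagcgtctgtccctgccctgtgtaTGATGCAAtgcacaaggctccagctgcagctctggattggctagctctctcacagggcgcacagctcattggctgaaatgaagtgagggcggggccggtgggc

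In members Chac1 stood at 6.05 and 29.7 (log2 ratio 2.29) and Pycr1 at 9.69 and 22.6 (1.22). In windows from 250 bases before to 50 after the start, 11 of 35 listed genes with a window (31.4%) held the letters, against 1219 of 27025 genes in all (4.51%). They were held by 6 of 17 listed genes past the fold upward (35.3%) and by 5 of 16 that were not (31.3%), so the match did not separate them. A match is a description of the sequence and not a shown binding site, and Trib3, Phgdh, Stc2 and Atf5 had none in the shown span.

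Of 18 measured cytokine and chemokine genes, 6 were higher in DAB members and 4 lower, beside 4.73% and 6.02% of all genes. The median was 0.47, and 0.52 for the same genes in other cells. There 4 were higher and 1 lower, beside 291 higher and 207 lower of 9684 genes. The chemokines Ccl2 at 0.605 and 35.3, Ccl3 at 27.2 and 78.5, Ccl4 at 9.08 and 115 and Cxcl2 at 12.7 and 118 were higher, as were Il6 at 5.45 and 12.3 and the growth factor Csf1 at 31.5 and 109.9. Il1b at 39.4 and 12.3 and Vegfa at 149.5 and 71.9 were lower, beside Ccl17 and Ccl24. Il4 did not pass the fold, at 11.5 and 17.0 (0.56, -0.12 to 1.32). Hgf, hepatocyte growth factor, was at 52.1 and 70.8 in members, against 13.7 and 21.2 in other cells and 451 and 672 in protease-high cells.

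The partner chains of Il2ra were uneven. Il2rg was at 79.9 and 105, close to the 83.2 and 97.0 of other cells, whereas Il2rb had 0 UMIs in DMSO members, which allows up to 1.82 CPM, and 0.738 in DAB members, found in 1.82% of them. Csf2rb, the beta chain shared by the receptors of GM-CSF, IL3 and IL5, stood at 1126 and 1402 in members and 791 and 955 in other cells. Over 18 cytokine receptor genes 1 was higher in DAB members (Il18r1) and 3 were lower (Il6st, Il7r and Csf3r), beside 4.73% and 6.02% of all genes, so the single higher gene is near the background. Il6st, the signalling chain for IL6, was at 13.9 and 3.62 in members and likewise lower in other cells, at 26.2 and 6.42.

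Of 12 STAT5 target genes, which cytokine receptors of this family induce, 1 was higher in DAB members (Ccnd2, at 209 and 438) and 1 lower (Socs2, at 168 and 75.8), with a median of 0.00. A single gene of 12 each way is near the 4.73% and 6.02% of all genes. Of 13 genes read out from ERK signalling 2 were higher, the phosphatase Dusp6 at 34.5 and 88.4 and Egr3 at 3.03 and 13.4, and 1 lower, Egr2 at 40.6 and 17.3, with a median of 0.36 beside 0.02 in other cells. The same genes had medians of 0.15 in other cells of like depth and 0.42 in protease-high cells. Cd34 was at 29.7 and 81.3, past the fold, and likewise in other cells at 8.81 and 37.2.

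Of 22 proliferation genes, 4 were lower in DAB members and 0 higher, with a median of -0.56, beside -0.08 in other cells. Over all genes 6.02% were lower and 4.73% higher. They were the marker Mki67 at 144 and 68.4 (-1.07), the mitotic kinase Aurkb at 45.4 and 18.3, the replication helicase Mcm7 at 49.0 and 22.7 and the nucleotide reductase Rrm1 at 64.2 and 31.9. Members were called cycling when a draw of 1500 of their UMIs held 3 or more UMIs of the 22 genes. This was so for 24.6% of DMSO (14.8 to 36.9) and 14.5% of DAB members (11.4 to 18.2). Their intervals overlap. Other cells of like depth had 26.3% and 21%, and without thinning 72.3% and 70.9% of members reached 3 UMIs.

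Some genes that were higher in members than in other cells differed little between the libraries. The log2 ratios of DAB over DMSO in members were -0.07 for Alox15 (-0.37 to 0.25), -0.03 for Fgfr1 (-0.29 to 0.24), -0.07 for Tanc2 (-0.25 to 0.12), 0.21 for Adgre1 (0.10 to 0.33) and 0.17 for Fn1 (0.07 to 0.26). Others of the 20 ranked genes passed the fold, among them Cpa3 (1.78) and Itga2 (1.34) upward and Nxpe4 (-1.52) and Cav1 (-3.47) downward, and Fcrls was at -0.84, inside the fold. Alox15 in other cells was 2.25, from 0.910 to 4.33 CPM. The ratios for the ranked genes and the lists named above are plotted for members against other cells.

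**Figure D4:**
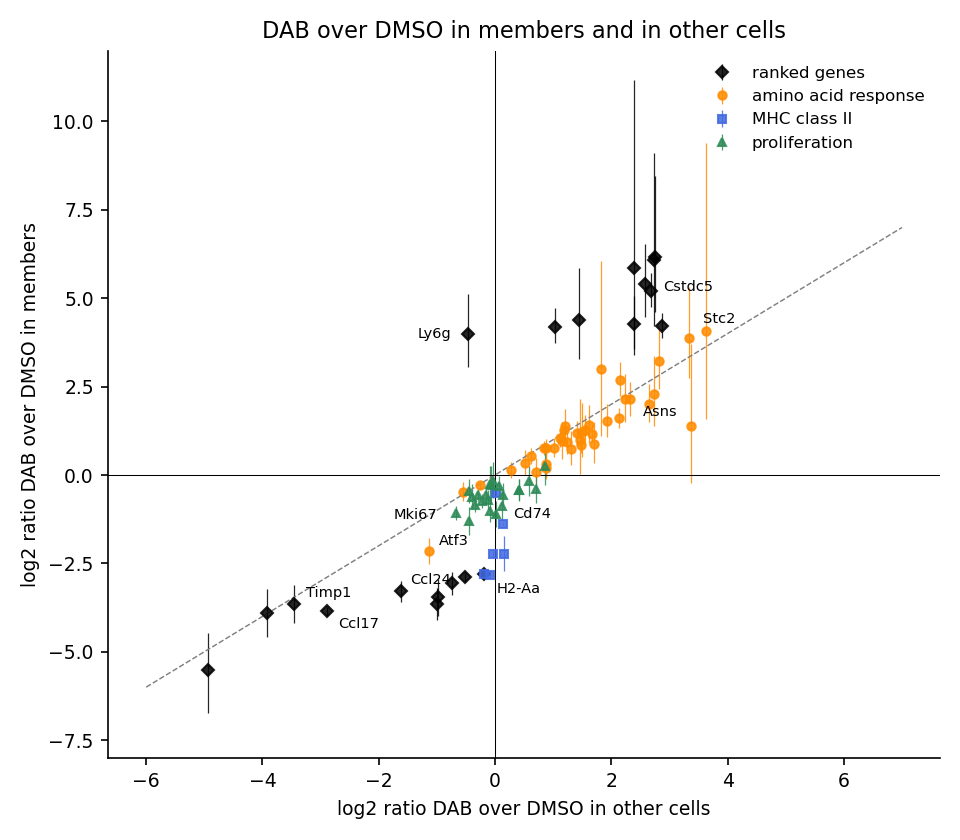
Log2 ratio of DAB over DMSO in members (vertical axis, bars exact 95% intervals) against the same ratio in other cells (horizontal axis) for the 20 ranked genes and 3 gene lists; the dashed line marks equal ratios, and genes at 0 in the members of a library are left out. Amino acid response genes mostly lie near or a little below the line, class II genes lie near 0 for other cells and down to -2.82 for members, and Ly6g lies above 0 for members (3.99) and below for other cells (-0.47).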

How the data were processed

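Single-cell RNA-seq was deposited as 1 matrix of raw UMI counts per library, made by the authors with Cell Ranger 7.0.0 on mm10 (Seurat 4.3.0 and R 4.1.2 are named as well per the labels). Both matrices list 32285 features in 9855 and 11631 barcodes, of which 9621 and 11414 passed the limits of 1000 UMIs and 10% mitochondrial UMIs. The members and the 25 gene lists (332 genes, 3 not found in the files) were chosen with earlier results of these data known.

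UMIs were summed per group and library, since cells are not replicates, and expressed as CPM. Ratios have exact conditional binomial intervals and levels exact Poisson intervals. A gene counted as higher or lower when it passed log2 1 (in both libraries for a comparison between cell groups) and had 50 UMIs, counted or expected, in the sums compared. Against a sum of 0, 3 UMIs were allowed. Shares of cells with a UMI are as counted, or, where given as thinned, after each cell was thinned to 1500 UMIs with seed 1, leaving out shallower cells (exact Clopper-Pearson intervals). Genes were named by a rule: those of the label and of the selection, the 20 that led over other cells, the 10 in each direction against protease-high cells and between the libraries, and list members. Adgre1 is a list member. Doublets were simulated, at an assumed rate of 0.8% per 1000 barcodes, and removed only as an alternative. Gene positions were read from the GENCODE annotation of GRCm38, the assembly also named mm10, and promoters from RefSeq on GRCm38.p6. Python 3.11.15, numpy 2.4.6, scipy 1.17.1, pandas 2.3.3, scikit-learn 1.9.0 and matplotlib 3.10.9 were used. The ratios and intervals between the libraries were tried on simulated Poisson sums. Those sums leave out the uneven spread of UMIs over cells, so the trial checks the calculation only.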

Additional observations from a re-analysis of the deposited data

Results flagged for a closer look

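Some genes differed between DMSO and DAB in one direction in members and in the other direction in other cells. With 1 library per condition the difference was not tested for any of them, and for some the opposite direction held only against all other cells and not against other cells of like depth. On the log2 scale of DAB over DMSO, Ly6g was 3.99 in members and -0.47 in other cells, Elane, the neutrophil elastase, 3.29 and -0.77, and Lcn2, a siderophore-binding protein of granules, 1.70 and -0.27. In other cells of like depth Ly6g was 0.87 and Lcn2 0.77, the direction of the members, and Elane -1.0. These are genes of neutrophils and their precursors, and Elane rests on 2 DMSO and 161 DAB UMIs, all 161 in the richest 10% of members. Cd74 was -1.39 in members and 0.13 in other cells, and Ciita was -2.23 and 0.16, both genes of class II presentation. In other cells of like depth they were -0.13 and -0.03, below 0 as in members. Il18r1, a chain of the IL18 receptor, was 1.27 and -0.19 (-0.04 at like depth), at 13.3 and 32.2 CPM in members. Rora, a nuclear receptor, was 2.33 and -0.16 (-0.43 at like depth) and rests on 3 DMSO and 124 DAB UMIs.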

How the results depend on the processing

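The ratio of the member shares and the medians of the 4 lists rerun (amino acid response, class II, proliferation and neutrophil genes) kept their sign under the alternatives run, the other lists not having been rerun, and 31 values moved past the limits set for them while 150 did not. Under median of ratios scaling the direction with more genes turned over between the libraries (534 higher, 469 lower) and against protease-high cells (797 and 761). The neutrophil list median, 0.34, was 1.86, 1.08 and 1.01 with few S100a8 and S100a9 UMIs, at least 10 UMIs of the pair and doublets removed. Under these settings the log2 ratio of the member shares stayed between 2.23 and 2.58. The depth ranges were not among them, and there the ratio varied more widely. The DMSO and DAB shares were 0.669% and 1.87% at 10000 to 15000 UMIs and 8.22% and 18.1% at 40000 UMIs or more. At 5000 to 10000 UMIs they were 0.0376% and 0.386%, on 1 DMSO member. The DAB share was 4.30% with at least 4 UMIs of Il2ra and Cd200r3, 2.98% with at least 10, 4.39% among cells of at least 3000 UMIs, 2.92% with Gata2 alone, 4.55% with no condition on Gata2 and Hdc and 2.37% thinned to 10000 UMIs, and the DMSO share was 0.499% with at least 10 UMIs of the pair, 0.967% with no condition on Gata2 and Hdc and 0.485% thinned. Conditions on Gata2 and Hdc, thinning of the rule, cells of like depth and the 30 CPM minimum were chosen after seeing the data.

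Counts of genes moved with the minimum and the weighting. Against other cells, 328 were higher and 632 lower with the mean over cells, 124 and 176 with a minimum of 200 UMIs, 1992 higher with no minimum, and 202 lower against cells of like depth. Against protease-high cells, 955 were higher with the mean over cells, 5131 lower with no minimum, and 31 higher and 283 lower when only the 1 DMSO and 12 DAB cells left out by the protease limit were compared. Between the libraries, 890 were lower in DAB at a minimum of 20 UMIs, 208 higher and 215 lower at 200 UMIs, 5410 lower with no minimum, and 122 higher and 213 lower at 30 CPM. Without thinning, DMSO and DAB members with a UMI were 100% and 99.1% for Adgre1, 43.1% and 44.5% for Alox15 and 6.15% and 10.9% for Cpa3.

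No paired analysis was possible because each condition had 1 library, and leaving out a replicate was not possible either. Condition and library cannot be told apart. The 65 DMSO members held 1651637 UMIs against 13552096 in DAB, and a gene at 0 UMIs in DMSO members has an upper limit of 1.82 CPM, from 3 UMIs.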

Other observations

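Lists outside the comparisons above are given as values. Of 5 primary granule genes, 4 were higher in DAB members, where 4.73% of all genes were higher and 6.02% lower, with a list median of 2.19 beside -0.59 in other cells. Mpo, myeloperoxidase, went from 0 to 112 UMIs and Ctsg from 1 to 111 UMIs. In DAB members all UMIs of both lay in the richest 10%. The sum of the list was 58.1 and 80.7 CPM, of which Prtn3 made up 79.2% in DMSO members and Ms4a3 35.3% in DAB members. Of 25 lineage factors, 4 were higher and 2 lower in DAB members, beside 4.73% and 6.02% of all genes, with a median of -0.25. The 2 lower are near that share. Id1, an inhibitor of helix-loop-helix factors, stood at 25.4 and 99.5 CPM, Ikzf1 at 73.9 and 162.7, and Stat5a at 20 and 9.08.

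Of 9 genes of lipid mediators, 1 was higher and 1 lower in DAB members, beside 4.73% and 6.02% of all genes. Ptger3, a receptor of prostaglandin E2, stood at 2.42 and 20.8 CPM, and Ltc4s, the leukotriene C4 synthase, at 54.5 and 25.8. Alox5 and Alox5ap, which open leukotriene synthesis, stood at 258 and 405 and at 1311 and 1248, inside the fold. Of 14 Fc and paired receptors, 1 was higher (Fcgr4, on 2 and 73 UMIs) and 0 lower, which is near that background. Fcer1g, the signalling chain of Fc receptors, stood at 1500.3 and 1699 and Fcgr3 at 704 and 771. Itga2b, an integrin of megakaryocytes and mast cells, stood at 16.3 and 19.3, against 2.54 and 4.09 in other cells.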
